A study of Mus musculus with 8 samples.

Results

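The RNAs described here are the well-counted long noncoding RNAs of the mouse liver, 72 of the 24940 genes in the deposited count table. They were chosen as rows with a RefSeq noncoding transcript (NR_), annotated as ncRNA, at least 200 bases long and with a mean raw count of at least 100 over 8 livers. Symbols starting with Snor or Mir, and *H19*, were left out. Of 2476 rows that met the other criteria, 72 reached the count threshold. The members were thus selected on their mean raw count over both genotypes, so the level itself is a description and was not tested. Just inside the threshold were *Gm3704* at a mean of 100.25 counts and *0610031O16Rik* at 101.25, and just outside were *4930470G03Rik* at 99.6 and *Snhg8*, a snoRNA host gene, at 94.1.

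Long noncoding RNAs are transcripts that are not translated into a known protein. Some build nuclear structures, as *Neat1* does in paraspeckles. Some carry small nucleolar RNAs (snoRNAs) in their introns, and many are transcribed opposite or next to a protein-coding gene. In the liver, most such RNAs have a clone or prediction name and no assigned role, and 27 of the 72 were clone-named (Rik) and 23 were predicted genes (Gm).

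Liver RNA of C57BL/6 mice was sequenced from 4 *FxrKO* and 4 *Bcl6LKOFxrKO* mice, described in the study as males. Age was not given in the sources used here. Both groups were Bcl6(fl/fl) and homozygous for the FXR mutation, a whole-body knockout line of this bile acid receptor. The row of its gene *Nr1h4* still held counts, at 56.7 to 62.6 CPM (counts as a share of the library, scaled with TMM factors) in *FxrKO* livers and 39.4 to 48.1 CPM in *Bcl6LKOFxrKO* livers, a log2 fold change of -0.46 (edgeR adjusted p = 0.00497). The double knockout also had Albumin-Cre, which is active in hepatocytes and there removes the transcriptional repressor *Bcl6*. No mouse with functional *Fxr* was analysed here.

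Totals were between 7586241 and 11839503 counts per liver. *Bcl6* was at 56.3, 65.2, 21.2 and 55.6 CPM in *FxrKO* livers and at 11.9, 4.61, 5.55 and 7.72 CPM in *Bcl6LKOFxrKO* livers, so *FxrKO* liver 3 had less *Bcl6* than the other 3 of its group. Of the hepatocyte markers, none was at 0 in any liver. Of the 9 tested, 2 were higher, 2 lower and 5 neither (edgeR adjusted p under 0.05), with a median log2 fold change of -0.18. Among the 2 that rose, *Alb* went from 44554 ± 4422 to 135490 ± 8122 CPM (SD, n = 4 per genotype, edgeR adjusted p = 1.86e-06). The libraries were made from polyadenylated RNA with a stranded kit, while the recorded counting command names no strand, so reads of a noncoding RNA and of a gene on the other strand cannot be told apart.

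Of the 72 noncoding RNAs, 14 were higher and 17 were lower in *Bcl6LKOFxrKO* livers, and 41 did not pass the test (edgeR's quasi-likelihood test, Benjamini-Hochberg adjusted p under 0.05 over 12340 tested genes). This was 43.1% of the noncoding RNAs, beside 29.7% of all tested genes, of which 16.2% were higher and 13.5% lower. All tested genes also take in rows with fewer counts than the 72, so these shares are not matched for count level. Of 315 tested rows that met the other criteria but not the count threshold, 17.8% were called. The median log2 fold change was -0.09 for the 72 and 0.01 for all tested genes. With total counts alone as the scale, in which the albumin reads weigh fully, 9 were higher and 29 lower. All tested genes then had 1404 higher and 2949 lower, and their median moved to -0.15. The 2 genotypes did not overlap for 26 of the 72 noncoding RNAs, beside 31.3% of all tested genes. Because the threshold was set on the mean of both genotypes, 20 of the 72 were under 100 counts in 1 genotype and reached it through the other. Among the 52 with a mean of 100 or more in both, 7 were higher and 10 lower, which is 32.7%. In bulk liver, fewer cells of a type and less RNA per cell cannot be told apart.

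**Figure D1:**
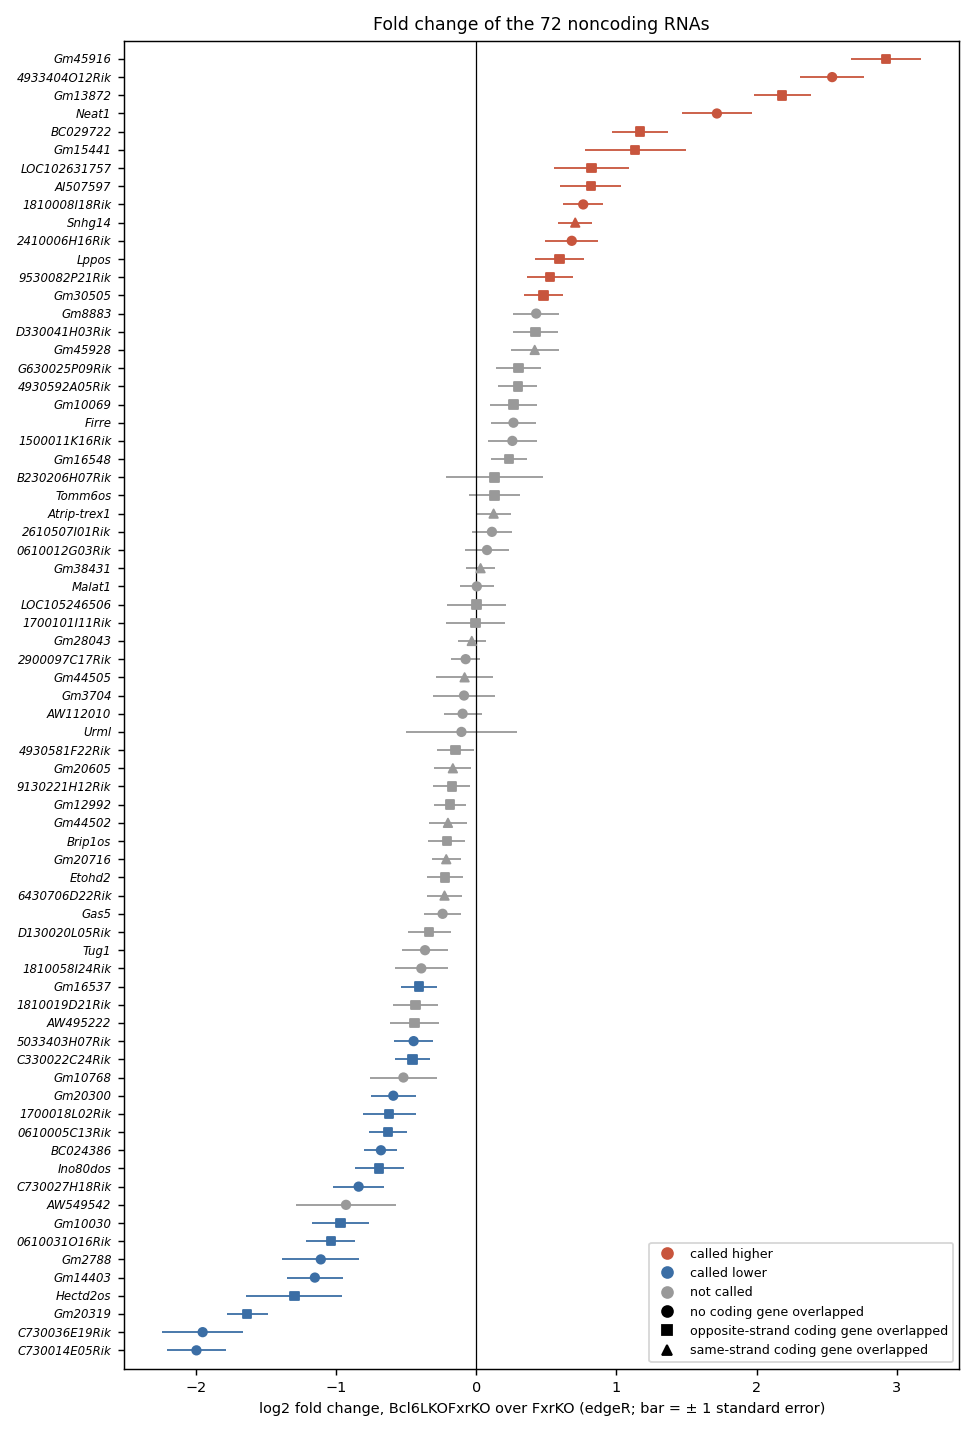
Log2 fold change of each of the 72 noncoding RNAs in Bcl6LKOFxrKO over FxrKO livers (edgeR, 4 livers each, bars are 1 standard error). Colours mark the 14 called higher, the 17 called lower and the 41 not called, and shapes mark overlap with a protein-coding gene on either strand; values run from -1.997 for *C730014E05Rik* to 2.93 for *Gm45916*.

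Of 4 nuclear body and chromatin RNAs, 1 rose and 3 did not pass the test, beside 29.7% of all tested genes called in either direction. *Neat1* (NR_131212, mm10 chromosome 19 from 5824710 to 5845478, minus strand), the scaffold of paraspeckles, was at 685, 413, 497 and 335 CPM in *FxrKO* livers. It was at 1932, 1052, 1363 and 1997 CPM in *Bcl6LKOFxrKO* livers. Every double knockout liver was above every *FxrKO* liver, and *Neat1* was the most counted of the 72 over all 8 livers, while *Gm30505* and *Gm10069* had more counts in *FxrKO* livers. Its log2 fold change was 1.72 (with its standard error, SE, at 0.25, edgeR adjusted p = 0.000427), with a range of 1.56 to 1.93 over the alternative settings. Per kilobase of its full 20768 bases, *Neat1* stood at 23.2 CPM in *FxrKO* and 76.4 CPM in *Bcl6LKOFxrKO* livers. Which part of this length the reads came from was not tested, so the values describe the *Neat1* row as a whole. No coding gene overlaps it, and its nearest one, *Frmd8*, 5496 bases away on the same strand, had a log2 fold change of 0.10 (edgeR adjusted p = 0.589).

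*Malat1* (NR_002847, chromosome 19 from 5795690 to 5802672), an abundant RNA of nuclear speckles that lies beside *Neat1*, was at 72.5 ± 6.23 CPM in *FxrKO* livers and 72.6 ± 10.6 CPM in *Bcl6LKOFxrKO* livers (SD, n = 4 each). Its log2 fold change was 0.00 (SE 0.12), and its sign turned under several settings. *Tug1*, the taurine upregulated gene, found in nucleus and cytoplasm, was at 26.4 ± 4.201 and 20.5 ± 3.84 CPM, a log2 fold change of -0.37 (edgeR adjusted p = 0.111). *Firre*, a repeat-bearing RNA of the X chromosome that contacts chromatin, was at 21.7 ± 2.21 and 26.1 ± 5.93 CPM (log2 fold change 0.26, adjusted p = 0.238, edgeR). The genotypes overlapped in all 3 of these RNAs.

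*Norad* (listed as *2900097C17Rik*), a cytoplasmic RNA that binds PUMILIO proteins and guards chromosome stability, was at 50.8 ± 2.86 and 48.2 ± 3.11 CPM (SD, n = 4 each). Its log2 fold change was -0.08 (SE 0.10, edgeR adjusted p = 0.61). Its livers overlapped, and their spread was among the narrow ones of the 72.

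Of the snoRNA host genes, 2 were counted well enough, and 1 of them was called, beside 29.7% of all tested genes. *Gas5*, which carries box C/D snoRNAs in its introns and whose own RNA is short-lived, was at 25.5, 29.7, 33.6 and 32.7 CPM in *FxrKO* livers. It was at 22.6, 26.8, 23.7 and 29.9 CPM in *Bcl6LKOFxrKO* livers. The genotypes overlapped, and the log2 fold change was -0.24 (SE 0.13, edgeR adjusted p = 0.195). *Gas5* belongs to the genes with a terminal oligopyrimidine start, a C followed by pyrimidines at the first base of the RNA. That start is shown from the RefSeq table (GRCm38.p6, chr1:161035146-161035185, plus strand) with the first 5 transcribed bases in capitals; this RefSeq start lies 250 bases downstream of the start of the counted row.

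Gas5: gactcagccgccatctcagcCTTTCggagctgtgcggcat

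*Snhg14* (NR_146211, chromosome 7 from 59272737 to 60450177), the long imprinted host of clustered snoRNAs that runs opposite *Ube3a*, was at 16.7, 14.4, 14.7 and 14.1 CPM in *FxrKO* livers. It was at 25.5, 22.3, 25.9 and 23.9 CPM in *Bcl6LKOFxrKO* livers. All 4 double knockout livers were above all 4 *FxrKO* livers. The log2 fold change was 0.71 (SE 0.12, edgeR adjusted p = 0.000794), although at 0.819 CPM per kilobase it was the lowest of the 72 by length. *Ube3a*, a ubiquitin ligase that this RNA is known to silence in neurons, had a log2 fold change of -0.51 (SE 0.19, edgeR adjusted p = 0.0602). The raw count of *Snhg14* was 52.5% to 75.5% of that of *Ube3a* in *FxrKO* livers and 110% to 225% in *Bcl6LKOFxrKO* livers. The *Snhg14* row also spans *Snrpn* and *Snurf* on its own strand, so its reads may be shared with theirs.

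**Figure D2:**
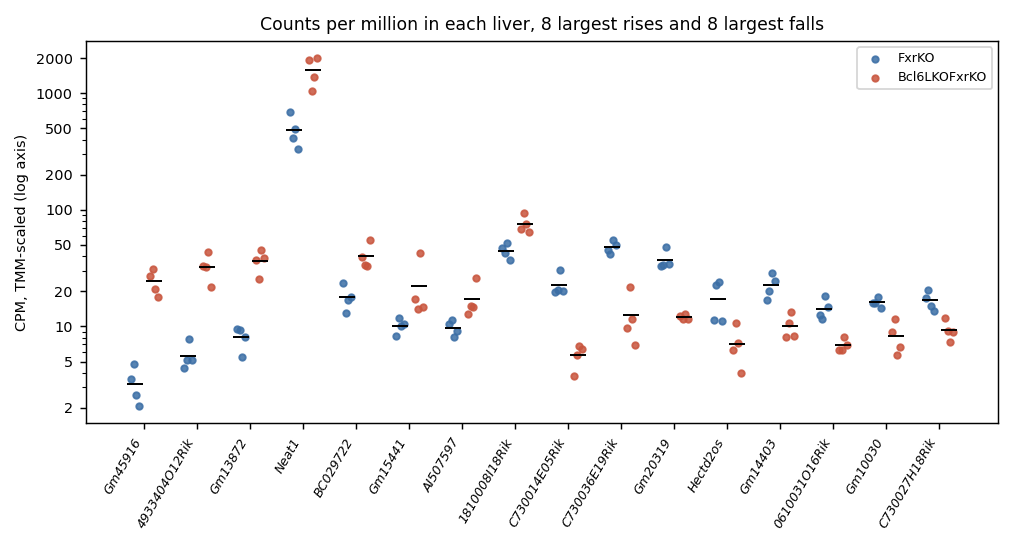
CPM in each of the 8 livers (points, log axis) with the mean of each genotype (line), for the 8 largest rises on the left and the 8 largest falls on the right among called RNAs with no overlap between genotypes. In *Neat1* the 4 Bcl6LKOFxrKO livers sit between 1052 and 1997 CPM and the 4 FxrKO livers between 335 and 685 CPM.

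The largest rises were seen in little-described RNAs, which are among the 20 that were under 100 counts in 1 genotype, so a rule on the mean of both genotypes favours large changes in them. *Gm45916* had a mean of 29.5 counts in *FxrKO* livers, *4933404O12Rik* 52.25 and *Gm13872* 75.5. *Gm45916* (NR_040680, chromosome 11 from 109440078 to 109453359, plus strand) was at 3.54, 4.75, 2.58 and 2.08 CPM in *FxrKO* livers and at 27.3, 31.2, 21.04 and 17.98 CPM in *Bcl6LKOFxrKO* livers. Its log2 fold change was 2.93 (SE 0.25, edgeR adjusted p = 3.09e-06). Its 3′ end runs into that of *Slc16a6*, a monocarboxylate transporter on the other strand, which had a log2 fold change of 3.08 (edgeR adjusted p = 4.31e-07). *4933404O12Rik* (NR_015555, chromosome 5 from 136919146 to 136937109, plus strand), which no coding gene overlaps, was at 4.37, 5.12, 7.74 and 5.11 CPM in *FxrKO* livers. In *Bcl6LKOFxrKO* livers it was at 33.1, 32.0, 43.3 and 21.7 CPM. The lowest double knockout liver was above the highest *FxrKO* liver in both RNAs. The log2 fold change of *4933404O12Rik* was 2.54 (SE 0.23, edgeR adjusted p = 5.05e-06), while *Ift22*, a gene of transport in cilia that lies 5902 bases away, was at 0.59 (edgeR adjusted p = 0.0476).

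The largest falls were in *C730014E05Rik* and *C730036E19Rik*, neither of which overlaps a coding gene. The former is also among these 20, with a mean of 56.25 counts in *Bcl6LKOFxrKO* livers, and the latter is not. *C730014E05Rik* (NR_155420, chromosome 16 from 23175280 to 23204376, plus strand) was at 19.8, 20.5, 30.5 and 20.2 CPM in *FxrKO* livers and at 3.73, 5.70, 6.82 and 6.45 CPM in *Bcl6LKOFxrKO* livers. It fell by 1.997 on the log2 scale (SE 0.21, edgeR adjusted p = 1.5e-05). *C730036E19Rik* (NR_038011, chromosome 1 from 151138034 to 151144095, plus strand) was at 44.9, 41.4, 54.9 and 50.2 CPM and at 9.77, 21.8, 11.5 and 6.90 CPM, in the same order of genotypes. It fell by 1.95 on the log2 scale (SE 0.29, edgeR adjusted p = 0.000667). In both RNAs the genotypes did not overlap, and the double knockout livers spread more in *C730036E19Rik*, with *Bcl6LKOFxrKO* liver 2 the highest.

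The promoters of these 4 RNAs, which moved most, are shown from the RefSeq table (GRCm38.p6) from 250 bases before the start, in lower case, to the first 50 transcribed bases, in capitals. They lie at chr11:109439828-109440127, plus strand, chr5:136918896-136919195, plus strand, chr16:23175030-23175329, plus strand and chr1:151137784-151138083, plus strand.

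Gm45916: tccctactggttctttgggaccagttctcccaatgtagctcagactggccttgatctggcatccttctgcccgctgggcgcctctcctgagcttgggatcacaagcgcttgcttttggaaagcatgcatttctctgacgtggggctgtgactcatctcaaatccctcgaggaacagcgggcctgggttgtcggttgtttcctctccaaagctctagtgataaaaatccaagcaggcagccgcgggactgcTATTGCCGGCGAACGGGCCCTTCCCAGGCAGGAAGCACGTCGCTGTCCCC

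4933404O12Rik: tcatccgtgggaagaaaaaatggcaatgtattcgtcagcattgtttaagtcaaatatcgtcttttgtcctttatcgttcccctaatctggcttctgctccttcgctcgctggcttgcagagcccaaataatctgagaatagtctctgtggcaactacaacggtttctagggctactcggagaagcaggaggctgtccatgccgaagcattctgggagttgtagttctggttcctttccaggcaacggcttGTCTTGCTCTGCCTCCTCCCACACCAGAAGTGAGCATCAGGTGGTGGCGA

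C730014E05Rik: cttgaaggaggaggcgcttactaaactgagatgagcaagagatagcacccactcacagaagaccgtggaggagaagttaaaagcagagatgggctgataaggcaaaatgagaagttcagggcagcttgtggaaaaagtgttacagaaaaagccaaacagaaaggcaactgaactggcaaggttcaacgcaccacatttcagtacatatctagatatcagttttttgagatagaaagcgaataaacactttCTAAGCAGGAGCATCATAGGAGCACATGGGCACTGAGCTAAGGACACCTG

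C730036E19Rik: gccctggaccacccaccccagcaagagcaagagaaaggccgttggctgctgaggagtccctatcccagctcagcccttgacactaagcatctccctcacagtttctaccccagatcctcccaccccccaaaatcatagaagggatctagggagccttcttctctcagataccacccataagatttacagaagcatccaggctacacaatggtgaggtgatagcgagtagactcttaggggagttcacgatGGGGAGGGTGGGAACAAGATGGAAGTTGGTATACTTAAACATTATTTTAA

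The 250 bases before the start were 55.2% G or C in *Gm45916*, 47.6% in *4933404O12Rik*, 42.4% in *C730014E05Rik* and 53.2% in *C730036E19Rik*. A RefSeq promoter was matched for 52 of the 72 noncoding RNAs, with 55 sequences. The palindrome TTCNNNGAA, the type bound by STAT and BCL6 proteins, reads the same on both strands and was found in 3 of the 52 (*AW495222*, *B230206H07Rik* and *Gm3704*), which is 5.77%, beside 8.3% of all 32851 promoters of the same length. None of these 3 was called and none of the 4 promoters above holds it. The classical FXR element, an inverted repeat spaced by 1 base (IR1), was in 0 of the 52 and in 0.00913% of all promoters. A C followed by 4 pyrimidines at the annotated start was found in 5 of the 52 (*Etohd2*, *Gas5*, *Gm16537*, *Gm20716* and *Hectd2os*), 9.62%, beside 2.51% of all promoters. These are matches of letters in this window and say nothing of binding.

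Of 6 RNAs listed as opposite-strand, 2 were higher and 2 lower, beside 29.7% of all tested genes called in either direction. The list went by symbol, except for *Gm15441*, which was added to it. It leaves out *Rbfaos* (listed as *LOC105246506*), at a log2 fold change of 0.00 (edgeR adjusted p = 0.997). *Gm15441* had a mean of 94.5 counts in *FxrKO* livers, and *Hectd2os* 67.25 and *Ino80dos* 94.25 in *Bcl6LKOFxrKO* livers, so these are among the 20 under 100 counts in 1 genotype. *Gm15441*, a liver RNA transcribed opposite *Txnip*, was at 8.33, 11.8, 10.1 and 10.4 CPM in *FxrKO* livers and at 17.02, 14.1, 43.0 and 14.6 CPM in *Bcl6LKOFxrKO* livers. The groups did not overlap, but *Bcl6LKOFxrKO* liver 3 stood far above the rest, and without it the log2 fold change went from 1.13 (SE 0.36, edgeR adjusted p = 0.0408) to 0.59. The call was lost in 8 of 15 alternatives, with adjusted p up to 0.102 (edgeR with no filter). *Txnip*, which encodes the thioredoxin-interacting protein, had its highest value in the same liver, 225 CPM against 75.2 to 97.4 CPM in the other 3 double knockout livers, and a log2 fold change of 1.03 (edgeR adjusted p = 0.0617). *Lppos*, opposite the LIM domain gene *Lpp*, was at 14.7 ± 1.36 and 22.1 ± 5.89 CPM (SD, n = 4 each), a log2 fold change of 0.59 (edgeR adjusted p = 0.0214). *Lpp* itself was at -0.06 (adjusted p = 0.746). The *Lppos* call was lost without *FxrKO* liver 2 (adjusted p = 0.0519), without *FxrKO* liver 4 (adjusted p = 0.0657) and with total counts alone (adjusted p = 0.0665). Without *Bcl6LKOFxrKO* liver 4 the log2 fold change was 0.39.

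*Hectd2os*, opposite the ubiquitin ligase gene *Hectd2*, was at 11.2, 22.5, 24.2 and 11.2 CPM in *FxrKO* livers and at 6.25, 10.8, 7.21 and 3.995 CPM in *Bcl6LKOFxrKO* livers. The highest double knockout liver was just under the lowest *FxrKO* livers. It fell by 1.30 on the log2 scale (SE 0.34, edgeR adjusted p = 0.0164), and without *Bcl6LKOFxrKO* liver 4 the adjusted p was 0.0557. *Hectd2* fell by 1.22 on the same scale (edgeR adjusted p = 0.00735). *Ino80dos*, which overlaps the complex I gene *Ndufs1*, fell by 0.69 on the log2 scale (edgeR adjusted p = 0.0102), from 15.5 ± 2.67 to 9.59 ± 1.73 CPM, with overlap between 1 liver of each genotype. *Ndufs1* fell by 0.48 (adjusted p = 0.0101). *Tomm6os* and *Brip1os* had log2 fold changes of 0.13 and -0.21 and did not pass the test (adjusted p = 0.631 and 0.251, edgeR).

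Of the other large rises, 3 lay opposite coding genes and 1 did not. *Gm13872* (NR_153853), inside the span of the glutamate transporter gene *Slc1a2*, was at 9.57, 9.25, 5.48 and 8.04 CPM in *FxrKO* livers and at 37.1, 25.6, 45.4 and 38.5 CPM in *Bcl6LKOFxrKO* livers. Its log2 fold change was 2.18 (SE 0.20, edgeR adjusted p = 5.73e-06), and that of *Slc1a2* was 1.68 (adjusted p = 4.37e-05). *BC029722*, whose end overlaps that of the membrane-type metalloproteinase gene *Mmp24*, rose by 1.17 on the log2 scale (SE 0.20, edgeR adjusted p = 0.000949), and *Mmp24* by 1.28 (adjusted p = 0.0035). *AI507597*, which lies wholly within exons of *Tmem82* on the other strand, rose by 0.82 (edgeR adjusted p = 0.0135), and *Tmem82* by 0.65 (adjusted p = 0.0224). Without *Bcl6LKOFxrKO* liver 4 the value of *AI507597* was 0.53 and still passed the test. With a mean of 91 counts in *FxrKO* livers, this RNA is also among the 20 under 100 counts in 1 genotype. *1810008I18Rik*, which overlaps no coding gene, rose from 44.6 ± 6.29 to 75.8 ± 12.9 CPM (SD, n = 4 each), a log2 fold change of 0.76 (edgeR adjusted p = 0.00144). The genotypes did not overlap in any of these 4.

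Falls were spread over both kinds of locus. *Gm20319* (NR_105063), whose 3′ end meets that of *Il1rap*, the accessory protein of the interleukin-1 receptor, was at 33.1, 33.7, 48.3 and 34.2 CPM in *FxrKO* livers. It was at 12.2, 11.5, 12.8 and 11.5 CPM in *Bcl6LKOFxrKO* livers, the tightest group of the large changes. It fell by 1.63 on the log2 scale (SE 0.15, edgeR adjusted p = 4.14e-06), and *Il1rap* fell by 2.08 (adjusted p = 1.36e-06). *Gm14403* fell by 1.15 (edgeR adjusted p = 0.00093), *0610031O16Rik* by 1.04 (adjusted p = 0.000744), *Gm10030* by 0.97 (adjusted p = 0.00307) and *C730027H18Rik* by 0.84 (adjusted p = 0.00375), all with no overlap between genotypes. In *Bcl6LKOFxrKO* livers their means were 99.5, 68.5, 79.25 and 91.5 counts, in that order. All of them are thus among the 20 under 100 counts in 1 genotype, so a rule on the mean of both genotypes favours large changes in them. *Rtp3*, a liver-expressed receptor transporter gene opposite *Gm10030*, fell by 1.37 (edgeR adjusted p = 0.00329). *Bicc1*, an RNA-binding protein gene 9047 bases from *C730027H18Rik*, went the other way, with a log2 fold change of 1.04 (edgeR adjusted p = 0.0145).

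**Figure D3:**
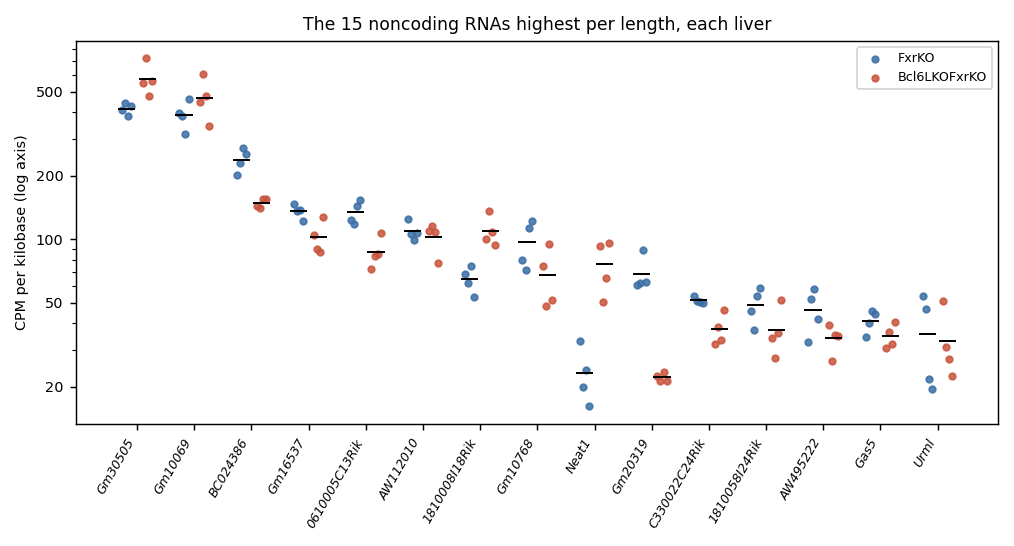
CPM per kilobase of transcript (log axis) in each liver for the 15 noncoding RNAs with the highest mean per length; points are livers and lines are the mean of each genotype. *Gm30505* is highest with a mean of 415 in FxrKO and 578 in Bcl6LKOFxrKO livers, and *Neat1* is ninth with 23.2 and 76.4. Levels of RNAs that overlap a coding gene may include reads of that gene.

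Averaged per kilobase over all 8 livers, 5 RNAs led the 72. *Gm30505* had a mean of 496 CPM per kilobase over all livers, *Gm10069* 429, *BC024386* 194, *Gm16537* 119 and *0610005C13Rik* 110, beside a lowest value of 0.819 in *Snhg14*. All of these leaders but *BC024386* overlap a coding gene on the other strand. Their levels may thus include reads of that gene, and the ranking is one of rows. The overlapped genes *Ahsg* and *Pzp* had means of 107000 and 70736 raw counts. Within *Bcl6LKOFxrKO* livers the order differed, since *1810008I18Rik* at a mean of 110 and *AW112010* at 102.48 stood above *Gm16537* at 102.23 and *0610005C13Rik* at 86.7 CPM per kilobase. *Gm30505*, which overlaps the start of *Ahsg*, the gene of the plasma protein fetuin-A, was at 721, 780, 675 and 752 CPM in *FxrKO* livers and at 970, 1274, 842 and 993 CPM in *Bcl6LKOFxrKO* livers. Its log2 fold change was 0.48 (SE 0.14, edgeR adjusted p = 0.0192), with no overlap, and the call was lost without *FxrKO* liver 3 (adjusted p = 0.0627) and with total counts alone (log2 fold change 0.31, adjusted p = 0.0726). *Gm10069*, opposite the plasma protease inhibitor gene *Pzp*, was at 578 ± 88.7 and 695 ± 159 CPM (SD, n = 4 each) and did not pass the test (log2 fold change 0.27, adjusted p = 0.258, edgeR).

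*BC024386* (NR_015583, chromosome 7 from 140906064 to 140907967, plus strand) was at 325, 368, 434 and 409 CPM in *FxrKO* livers and at 233, 227, 249 and 249 CPM in *Bcl6LKOFxrKO* livers, which did not overlap. It fell by 0.68 on the log2 scale (SE 0.12, edgeR adjusted p = 0.000861). Its neighbour *Cox8b*, a respiratory subunit of muscle and brown fat 5618 bases away and transcribed divergently, had no count in any *FxrKO* liver and was at 3.32, 1.21, 1.17 and 2.91 CPM in *Bcl6LKOFxrKO* livers (edgeR adjusted p = 0.00041). *0610005C13Rik*, which overlaps the start of the branched-chain aminotransferase gene *Bcat2*, fell by 0.63 (SE 0.14, edgeR adjusted p = 0.00407), from 150 ± 18.7 to 96.8 ± 16.4 CPM, while *Bcat2* was at 0.24 (adjusted p = 0.164). *Gm16537*, opposite *Gpd1*, the cytosolic glycerol-3-phosphate dehydrogenase, fell by 0.41 (edgeR adjusted p = 0.0328), with overlap between genotypes. Its call was lost when any of 6 livers was left out (adjusted p up to 0.0866). *Gm3704*, just inside the count threshold, was at -0.09 (edgeR adjusted p = 0.798).

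Together the 72 held 0.458% to 0.483% of all counts in *FxrKO* livers and 0.488% to 0.565% in *Bcl6LKOFxrKO* livers. *Neat1*, *Gm30505* and *Gm10069* made up 37.0% to 43.6% of these counts in *FxrKO* and 55.4% to 61.2% in *Bcl6LKOFxrKO* livers. The coefficient of variation within a genotype had a median of 13.3% in *FxrKO* livers (from 3.61% to 48.7%, the highest in *Urml*) and of 18.1% in *Bcl6LKOFxrKO* livers (from 3.61% to 62.8%, the highest in *Gm15441*).

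By the spans in the count table, 27 of the 72 overlapped no coding gene, 35 overlapped one on the opposite strand only, and 10 overlapped one on the same strand. The shares called were 44.4%, with 4 higher and 8 lower, for the first class and 51.4%, with 9 in each direction, for the second, beside 29.7% of all tested genes. Both classes hold RNAs that were under 100 counts in 1 genotype. Over all 72, 70% of the 20 such RNAs were called, beside 32.7% of the 52 at 100 or more in both. How far the selection rule raises the shares within each class was not tested. By GENCODE exons, *Gm2788* and *Gm3704* of the first class still share 110 bases with *E2f8* and 45 bases with *Gm42906*. In the third class, 1 of 10 was called, which was *Snhg14*. Exon structures were available for 53 of the 72, nearly all from GENCODE, and exons of a coding gene on the opposite strand shared bases with 28 of them, over more than 50% of their exon length in 7. On the same strand, 7 shared bases, and 4 of these over more than 90%. The latter are read-through RNAs spanning neighbouring genes (*Gm20605*, *Gm20716*, *Gm38431* and *Gm44502*, chosen here after their values were seen), with log2 fold changes from -0.21 to 0.03 and adjusted p of 0.139 or more (edgeR), and their counts cannot be told apart from those of the genes they span. Coding genes linked by name or RefSeq entry to the RNA itself were left out of these shares. The spans of *Atrip-trex1* and *Gm44505* also cover *Atrip* and *Zfp91* on the same strand, for which no shared bases were counted. Their same-strand shares of 27.1% and 26.3% may thus be too low.

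**Figure D4:**
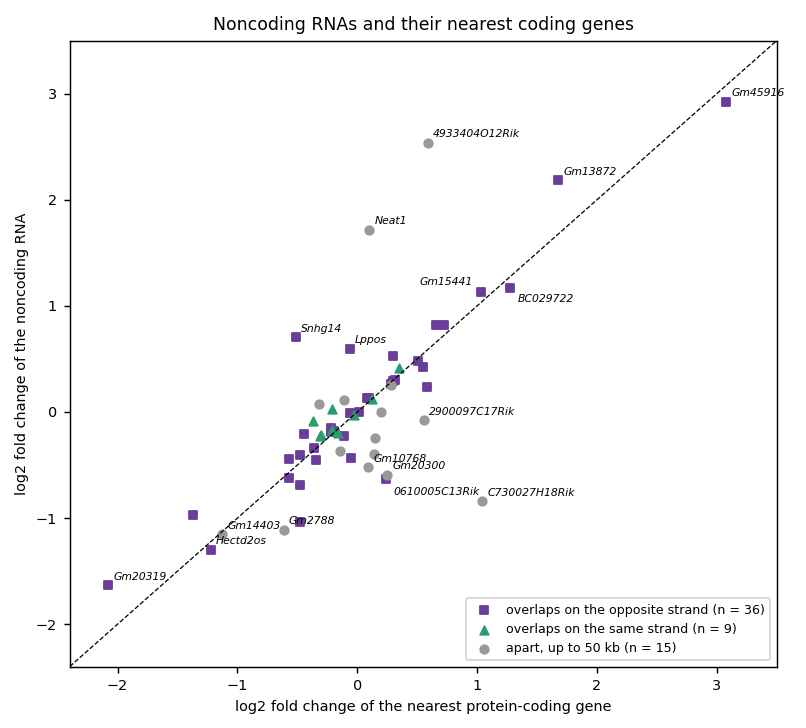
Log2 fold change of 60 noncoding RNAs (vertical) against that of the nearest tested protein-coding gene within 50 kb (horizontal), by overlap; the dashed line marks equal values. Of the 45 overlapping pairs, 31 lie within 0.2 of the line, with *Snhg14*, *Lppos* and *0610005C13Rik* away from it; the pair of *BC024386* and *Cox8b* is not drawn because *Cox8b* had no count in FxrKO livers.

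Within 10 kb, 58 of the noncoding RNAs had a tested protein-coding gene, and 20 of these genes were called, beside 30% of all tested protein-coding genes. Among the 45 pairs that overlap, the log2 fold changes of RNA and gene lay within 0.2 of each other in 31, had the same sign in 41, and had a median distance of 0.09. Across these 45 pairs Pearson's r was 0.92 and Spearman's rho 0.82, given as a description because both values of a pair come from the same libraries and may share reads. Among the 13 pairs that lie 1 base to 10 kb apart, 1 was within 0.2, 5 had the same sign and the median distance was 0.53. Of the 36 pairs overlapping on opposite strands, 25 shared exon bases, and all 25 had the same sign. In 7 of the 45 overlapping pairs the RNA was called and the gene was not, which does not show that the changes differ.

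The raw count of a noncoding RNA was also set against that of the overlapping gene within each liver. *Gm30505* was between 7.615% and 8.08% of the *Ahsg* count in all 8 livers, and 62 bases of its exons, 4.12% of the *Ahsg* transcript length, are shared. *Gm10069* was between 8.36% and 8.75% of *Pzp* in every liver. *Gm15441* was between 16.6% and 19.1% of *Txnip*, with 606 shared bases, 21.7% of the *Txnip* length. *Gm45916* was between 42.0% and 51.4% of *Slc16a6* in *FxrKO* and between 37.6% and 44.4% in *Bcl6LKOFxrKO* livers. These ratios overlapped between genotypes in 38 of the 45 overlapping pairs. They did not overlap in 7, among them *Snhg14*, *Lppos*, which went from 20.2% to 32.7% of *Lpp* in *FxrKO* livers to 33.9% to 73.3%, *0610005C13Rik*, from 633% to 983% of *Bcat2* to 323% to 475%, and *Gm20319*, from 30% to 37.2% of *Il1rap* to 38.9% to 61.7%. How many of these reads come from which strand was not tested.

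**Figure D5:**
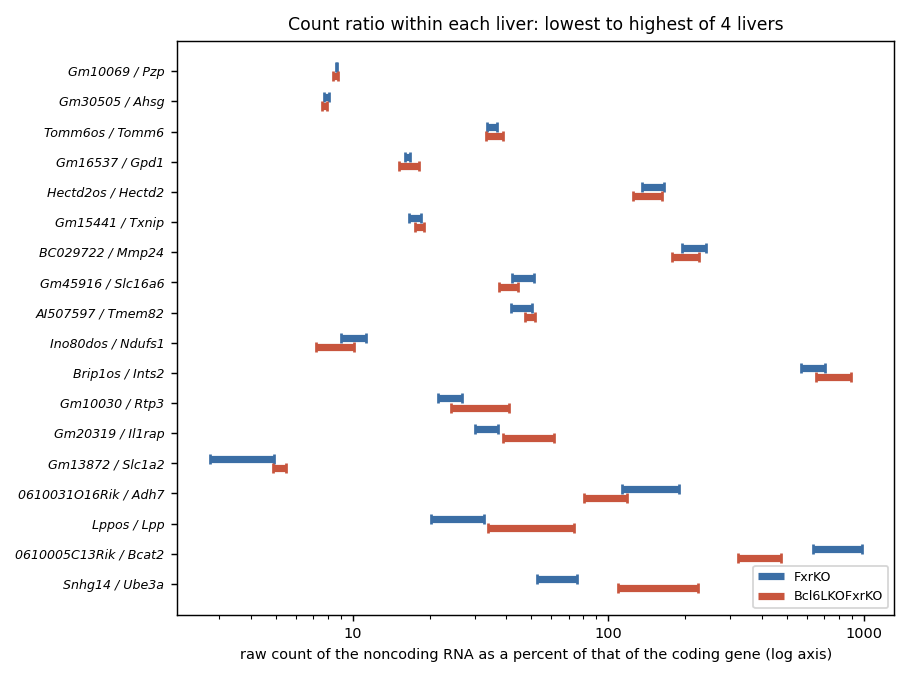
Raw count of the noncoding RNA as a percent of that of the overlapping coding gene within each liver (log axis), for 18 named RNAs; bars run from the lowest to the highest of the 4 livers of each genotype. The bars overlap for *Gm30505* and *Gm15441* and are apart for *Snhg14*, *0610005C13Rik*, *Lppos* and *Gm20319*.

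Of 23 genes that process or bind such RNAs (snoRNP proteins, decay factors, paraspeckle proteins, PUMILIO proteins and microprocessor subunits), 0 were higher and 1 lower (edgeR), with 1 higher and 3 lower at an unadjusted p under 0.05, 0 higher and 1 lower by DESeq2 and 1 higher and 2 lower by limma voom, beside 29.7% of all tested genes in either direction. The 1 that fell was the paraspeckle protein gene *Sfpq*, by 0.35 on the log2 scale (adjusted p = 0.0397), and it was chosen here after its value was seen. The paraspeckle protein genes *Nono* and *Pspc1* did not pass the test, with log2 fold changes of -0.20 and 0.51 (adjusted p = 0.127 and 0.0885, edgeR), while *Neat1* rose by 1.72. The genotypes did not overlap in either of these 2 protein genes, which was also so in 31.3% of all tested genes. The count over the 23 was between 0 and 6 lower under the alternatives.

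Markers of other liver cells were called in part, beside 16.2% of all tested genes called higher and 29.7% called in either direction. Of 10 stellate cell and fibroblast markers 7 were higher, and their summed level ran from 231 to 327 CPM in *FxrKO* and from 468 to 586 CPM in *Bcl6LKOFxrKO* livers. Macrophage markers were higher in 3 of 9 (434 to 608 and 612 to 1018 CPM), endothelial markers in 1 of 8 (159 to 226 and 206 to 277 CPM), and cholangiocyte markers in 3 of the 6 tested of 8 (58.7 to 85.2 and 109 to 216 CPM). Of 8 lymphocyte markers 1 passed the expression filter, and it was higher (8.38 to 11.9 and 14 to 21.2 CPM in sum). Hepatocyte markers were higher in 2 and lower in 2 of 9, and their sum went from 64165 to 74330 CPM to 151300 to 174300 CPM, mostly *Alb*. No marker was at 0 in all 8 livers, and the part of these cells in the change of any noncoding RNA was not tested.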

How the data were processed

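Liver RNA of 4 *FxrKO* and 4 *Bcl6LKOFxrKO* mice was analysed, with groups from the sample labels. The authors used STAR 2.5.2 on single-end reads of 100 bases, with mm10 as the genome, and deposited raw counts per gene on exons from HOMER 4.10, with no strand option in the recorded command. These counts were tested in R 4.3.3 with edgeR 4.0.16 (filterByExpr, TMM, robust quasi-likelihood fit, Benjamini-Hochberg adjustment over 12340 genes). CPM use the TMM factors, and a level per length divides CPM by the kilobases the count table gives. Overlaps and the nearest coding gene were taken from the spans in the count table, exons from GENCODE M21, and promoters from RefSeq (GRCm38.p6). A noncoding RNA was matched to an exon structure within 10% of its length.

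The noncoding RNAs and the lists were chosen with earlier results of these data known. Named were the RNAs of the role lists, the 8 largest rises and 8 largest falls among called RNAs without overlap between genotypes, the 5 highest per length, 2 at each side of the threshold, and their neighbours within 10 kb. The alternatives were DESeq2 1.42.0, limma 3.58.1 voom with quality weights, other scalings and filters, and each liver left out. The steps were tested on simulated data. Labels do not say that livers were processed in batches, and p-values measure the spread between these livers. A count of 3 is 0.272 to 0.375 CPM in these libraries, which covers counting error only. One result of the RNA processing list is not reported here.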

Additional observations from a re-analysis of the deposited data

Results flagged for a closer look

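In 64 groups of 4 livers (32 named RNAs in both genotypes), 6 had 1 liver far from the other 3, judged by Dixon's test on the gap to the nearest liver as a share of the group's range. Chance gives about 1 in 20, or 3.2 of 64.

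*Gm15441* had *Bcl6LKOFxrKO* liver 3 at 43.0 CPM beside 14.1 to 17.02 CPM (gap over range 0.898). *AI507597* had *Bcl6LKOFxrKO* liver 4 at 26.2 CPM beside 12.8 to 14.9 CPM (0.84). The same liver was high for *Lppos*, at 30.9 CPM beside 18.2 to 20.0 CPM (0.855), and for *Tomm6os*, at 43.6 CPM beside 24.3 to 25.6 CPM (0.931). *FxrKO* liver 3, the liver of its group with the least *Bcl6*, was high for *C730014E05Rik*, at 30.5 CPM beside 19.8 to 20.5 CPM (0.933), and for *Gm20319*, at 48.3 CPM beside 33.1 to 34.2 CPM (0.93).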

How the results depend on the processing

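Over 15 alternative fits, 445 of 480 values of the 32 named RNAs kept their direction and their side of the threshold. Of the rest, 20 lost a call (in 5 RNAs), 3 gained one and 12 changed sign. The named RNAs were in part picked as the largest changes without overlap between genotypes, so they do not stand for all calls. Of all 31 noncoding RNAs called, named or not, 19 kept their call in every alternative. Among those not named, *LOC102631757* lost its call in 8 alternatives, *5033403H07Rik* in 5 and *9530082P21Rik* in 4. With total counts alone, 9 noncoding RNAs were higher and 29 lower, beside 1404 higher and 2949 lower of all tested genes. The median log2 fold change was -0.25 for the noncoding RNAs, beside -0.15 for all tested genes. With the threshold at 50 counts, 21 noncoding RNAs were higher and 29 lower of 139, and at 200 counts, 5 were higher and 7 lower of 41. Among those overlapping no other row, 3 were higher and 8 lower of 23. The last 3 settings change how many RNAs are counted, and stand beside 29.7% of all tested genes called in either direction. With a liver left out, 10 to 15 noncoding RNAs were higher and 15 to 17 lower, and their median ranged from -0.142 to -0.0664. Of all tested genes, 1584 to 1873 were then higher and 1267 to 1668 lower.

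*Malat1* turned to -0.0786 with limma voom, -0.156 with total counts, -0.0209 with no filter and -0.0164 with the 50 most counted genes left out, and ranged from -0.101 to 0.0534 with a liver left out. *Tomm6os* turned to -0.0511 with limma voom and -0.03235 with total counts, and ranged from -0.121 to 0.217 with a liver left out. *Gm3704* ranged from -0.294 to 0.0346. Of the 23 RNA processing genes, limma voom called 1 higher and 2 lower, total counts 6 lower, no filter 2 lower, at least 10 counts in every liver 0 lower and the 50 most counted genes left out 3 lower, and with a liver left out 0 to 2 were lower. Beyond the scaling by total counts, the cause of these moves was not tested. No paired analysis was possible because the labels give no pairs of livers. RNAs near 100 counts are limited by depth.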
